A study of Mus musculus with 21 samples.

Results

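The genes of the T cell receptor complex, of its co-receptors and of the receptor chains that mark T and NK cells, together with Cd1d1, the lipid-presenting molecule that a specialised class of T cells reads, were followed in whole livers of mice that had lost Gata4 in sinusoidal endothelium. The members were rows of the deposited table whose symbol in the platform annotation was Cd3d, Cd3e, Cd3g, Trac, Cd4, Cd8a, Il2rb, Lck, Cd2 or Cd1d1. The annotation named 9 of these 10 rows. The row of Lck has no symbol there and was identified by its Entrez gene number in RefSeq, so 10 of the 25428 rows were followed. Affymetrix arrays were hybridised with total RNA of whole liver from 21 samples, each taken as 1 mouse, with the diet label std. In the 10 knockout mice (genotype gata4-lsec-ko) a floxed Gata4 allele (Gata4tm1.1Sad) was combined with the Cre driver C57BL/6N-Tg(Clec4g-icre)1.1Sgoe, which uses regulatory sequence of Clec4g, a gene of the sinusoidal endothelium. The 11 controls (genotype wt) were sibling mice, and the labels do not say whether they carried the driver or the floxed allele. The labels give no sex or age, and nothing on how many mice went into a sample. The description numbers of the samples form 2 consecutive runs, 1 with 5 control and 4 knockout livers and 1 with 6 of each, and run was a term of the fit.

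T cells recognise antigen through a receptor whose variable chains sit in a complex with the invariant CD3 chains, which carry the signal into the cell. CD4 and CD8 are co-receptors that bind MHC class II and class I, and the kinase LCK bound to them phosphorylates the CD3 chains. CD1d is an MHC class I-like molecule that pairs with beta-2 microglobulin and displays lipids instead of peptides. Natural killer T (NKT) cells, which are abundant in mouse liver, recognise those lipids through a receptor with a nearly invariant alpha chain. In the liver CD1d is found on hepatocytes as well as on endothelial, Kupffer and other antigen-presenting cells.

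Knockout livers had less Cd1d1 transcript and more of Trac, Il2rb and Cd3e, and the other members did not pass the test. Cd1d1 had 63.7% of its control signal on the linear scale, and Trac, Il2rb and Cd3e were 1.58-fold, 1.31-fold and 1.20-fold higher. The threshold was an adjusted p of 0.05 in limma's moderated test, with adjustment over all rows. Past it lay 4 of 10 members, against 7.33% of all rows; 3 were higher, against 3.28%, and 1 was lower, against 4.05%. Of rows with a mean below the median of all row means, where 5 members lie, 2.01% passed in either direction, and of the brighter rows 12.6%. The median difference (knockout minus control, log2) was 0.090 over the members and is described beside this background without a test of its own. In whole liver, fewer cells of a type and less RNA per cell cannot be told apart.

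**Figure D1:**
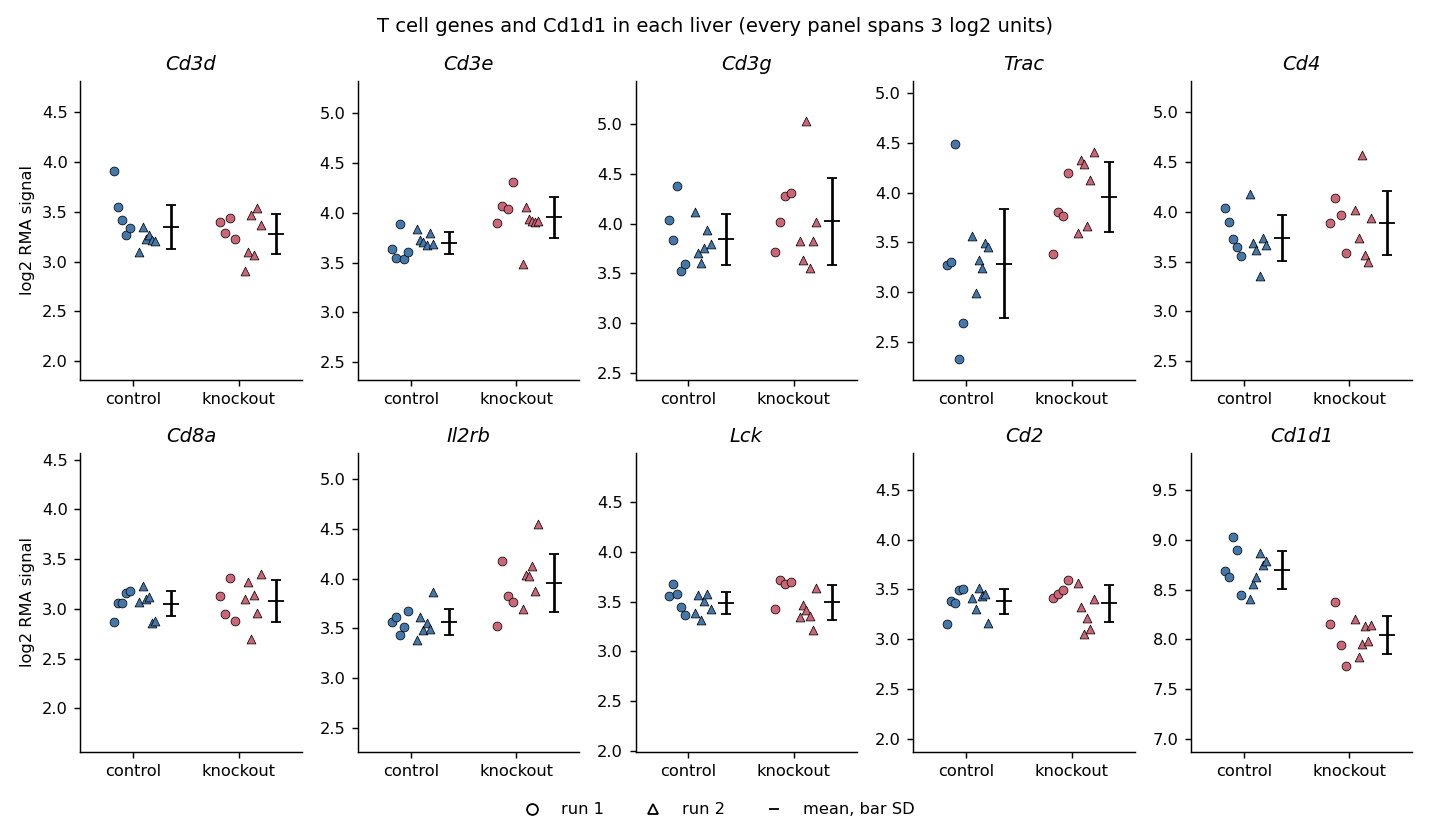
Log2 RMA signal (y axis, 3 log2 units in every panel) of each of the 10 genes in each liver, by genotype (x axis); circles are run 1, triangles run 2, and the dash and bar are the mean and SD of 11 control or 10 knockout livers. The Cd1d1 groups do not overlap, 1 control liver holds the highest Trac value, and 9 of 10 knockout livers lie above every control for Cd3e.

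Cd1d1 gave a signal well above the array median. Its log2 signal in the 11 control livers ran from 8.40 to 9.03 with a median of 8.69. In the 10 knockout livers it ran from 7.74 to 8.38 with a median of 8.06. Every knockout liver thus lay below every control liver. Such a separation downward was seen for 10 of the 25428 rows (0.0393%), and Cd1d1 had the third lowest p of those 10, after Plxnc1, a semaphorin receptor, and Rmdn2, a microtubule-associated protein. The difference was -0.65 ± 0.08 (log2, SE; 95% confidence interval -0.82 to -0.48; adjusted p = 1.94e-04). The livers of run 1 gave -0.69 ± 0.15 and those of run 2 gave -0.62 ± 0.09, and the change between runs did not pass (interaction 0.06 ± 0.17, adjusted p = 0.94). Leaving out any 1 liver kept the difference between -0.69 and -0.61 and the adjusted p at or below 6.71e-04. Run 1 alone, with 9 livers, did not pass for Cd1d1 (adjusted p = 0.16), and of all 25428 rows 3 passed there; run 2 alone passed (adjusted p = 0.0069).

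Cd1d2, the neighbouring near-identical copy of Cd1d1, gave a low signal. The control livers averaged 2.74 ± 0.15 (SD, n = 11) and the knockout livers 2.80 ± 0.19 (SD, n = 10), which differ by 0.05 ± 0.07 (SE; adjusted p = 0.72). How far the probes of the copies share transcripts is not stated in the labels, so the split between them is uncertain.

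No other listed gene of lipid presentation and NKT cells was called lower over all 21 livers. Of the 22 measured, 4 rose (18.2%) and none fell, against 7.33% of all rows and 12.6% of the brighter rows in either direction. Only 8 of the 22 had a mean under the median of all rows. The median difference was 0.117, against -0.01 over all rows. The cathepsin gene Ctss, whose protease processes antigen in endosomes, was up by 1.06 ± 0.23 (SE; adjusted p = 0.0094), with 10 of 10 knockout livers above the control mean of their run. Its highest control (9.75) lay above every knockout liver (up to 9.46), and the next highest control (8.61) below all 10. Npc2, a lysosomal sterol carrier, rose by 0.41 ± 0.10 (adjusted p = 0.014). Psap, the precursor of the saposins that load lipids onto CD1d, rose by 0.27 ± 0.07 (adjusted p = 0.016). B2m, the light chain that CD1d shares with MHC class I, was the other gene that rose. Mttp, the lipid transfer protein required for CD1d loading, differed by -0.23 ± 0.08, short of the threshold (adjusted p = 0.066). Markers of the NKT cells themselves were not called over all 21 livers. Zbtb16, their lineage transcription factor, which hepatocytes also express, differed by 0.50 ± 0.17 (adjusted p = 0.081), with -0.08 in run 1 and 0.93 in run 2, where it passed (run 2 adjusted p = 0.027; interaction p = 0.0014, adjusted p = 0.17). Klrb1c, the NK1.1 receptor gene, differed by -0.36 ± 0.14 (adjusted p = 0.12), with 0.01 in run 1 and -0.62 in run 2, where it passed as lower (run 2 adjusted p = 0.048; interaction p = 0.020, adjusted p = 0.37). Cxcr6, the chemokine receptor of liver NKT cells, differed by 0.16 ± 0.09 (adjusted p = 0.27). Traj18, the joining segment of the invariant NKT cell receptor and chosen after its values were seen, averaged 2.89 ± 0.16 (SD, n = 11) in control and 2.94 ± 0.22 (SD, n = 10) in knockout livers. Its runs had opposite signs, 0.33 in run 1 and -0.16 in run 2 (interaction -0.49 ± 0.13, p = 0.0012, adjusted p = 0.16).

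The 3 CD3 genes lie next to each other on chromosome 9, and of them only Cd3e passed the threshold. Whether their differences were unequal was not tested. The 95% confidence intervals were 0.11 to 0.41 for Cd3e, -0.13 to 0.49 for Cd3g and -0.23 to 0.11 for Cd3d. A call for 1 gene and none for its neighbours does not show that they differed from each other. The promoter stretches of the 3 genes are shown as description, and no relation of them to the differences was tested. The sequences are from RefSeq (GRCm38.p6), each 250 bases up to the base before the transcript start, 5′ to 3′ on the strand of the gene, at chr9:44980432-44980681 (minus strand) for Cd3g, chr9:44981536-44981785 (plus strand) for Cd3d and chr9:45009612-45009861 (minus strand) for Cd3e. Capitals mark matches on either strand to GGAAGT, a core bound by ETS factors, CAGGTG, an E-box, or AGATAA, a core bound by GATA factors.
Cd3g: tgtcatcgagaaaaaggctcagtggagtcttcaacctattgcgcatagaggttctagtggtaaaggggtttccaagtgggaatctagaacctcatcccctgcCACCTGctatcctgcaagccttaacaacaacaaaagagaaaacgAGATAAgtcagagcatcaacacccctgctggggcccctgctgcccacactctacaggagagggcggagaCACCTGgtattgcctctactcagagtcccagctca
Cd3d: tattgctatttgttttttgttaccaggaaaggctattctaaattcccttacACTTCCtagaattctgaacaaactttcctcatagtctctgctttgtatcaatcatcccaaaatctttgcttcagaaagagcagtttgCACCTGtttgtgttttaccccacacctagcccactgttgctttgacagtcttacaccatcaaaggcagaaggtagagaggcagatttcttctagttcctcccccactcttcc
Cd3e: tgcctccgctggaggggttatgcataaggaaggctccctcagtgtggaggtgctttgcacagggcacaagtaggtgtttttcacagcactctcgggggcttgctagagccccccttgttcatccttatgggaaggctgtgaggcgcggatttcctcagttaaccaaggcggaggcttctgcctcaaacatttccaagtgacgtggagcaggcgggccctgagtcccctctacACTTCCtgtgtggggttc
The Cd3g stretch held 2 E-boxes and 1 GATA core, the Cd3d stretch 1 ETS core and 1 E-box, and the Cd3e stretch 1 ETS core, 18 bases before the start. Another pattern, the RUNX core TGTGGT, had no match in these windows. Over the 32851 promoters of the table, cut to the same length, 19.7% held the ETS core, 17.2% the E-box, 9.99% the GATA core and 14.05% the RUNX core, so matches of this kind are common. No motif overlapped another. The starts of Cd3g and Cd3d lie 1355 bases apart and point away from each other.

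Cd3e encodes the CD3 chain that pairs with both other CD3 chains. In controls its log2 signal ran from 3.54 to 3.89 with a median of 3.69, and in knockout livers from 3.49 to 4.31 with a median of 3.93. Of 10 knockout livers 9 lay above the highest control, and the remaining one, replicate 5, lay below the lowest control. Cd3e rose by 0.26 ± 0.07 (log2, SE; 95% confidence interval 0.11 to 0.41; adjusted p = 0.030). The rise measured 0.44 ± 0.10 among run 1 livers and 0.14 ± 0.09 among those of run 2. The call was lost without any 1 of 4 livers (control replicates 2 and 4, knockout replicates 3 and 4; adjusted p up to 0.058) and with array weights (adjusted p = 0.058).

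Cd3g, the gamma chain, ran from 3.52 to 4.38 in controls (median 3.80) and from 3.56 to 5.03 in knockout livers (median 3.93), and the groups overlapped through most of this range. The highest value was that of knockout replicate 7. Its difference was 0.18 ± 0.15 (SE; 95% confidence interval -0.13 to 0.49; adjusted p = 0.52). Cd3d, the delta chain, ran from 3.10 to 3.91 in controls (median 3.27) and from 2.91 to 3.54 in knockout livers (median 3.32). The 2 highest Cd3d values were those of control replicates 1 and 2. Its difference was -0.06 ± 0.08 (95% confidence interval -0.23 to 0.11; adjusted p = 0.73), and run 2 alone gave 0.01.

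Trac, the constant region of the receptor alpha chain carried by conventional and NKT cells alike, varied most among the control livers. It ran from 2.32 to 4.49 in controls (median 3.31) and from 3.39 to 4.41 in knockout livers (median 3.97). Control replicate 3 held the highest value of all 21 livers, and 9 of 10 knockout livers lay above the next highest control (3.57). Trac rose by 0.66 ± 0.19 (log2, SE; 95% confidence interval 0.26 to 1.05; adjusted p = 0.039). The runs taken singly gave 0.57 ± 0.38 and 0.72 ± 0.15. Without control replicate 3 the difference was 0.79 (adjusted p = 0.0018), and the call was lost without any 1 of 11 other livers (control replicates 4, 5, 7, 8 and 9, knockout replicates 3, 4, 6, 7, 9 and 10; adjusted p up to 0.073). Control replicate 3 was also the highest control in the mean log2 signal of 12 Kupffer cell markers (7.53, with 5.47 to 7.53 over controls and 6.63 to 7.85 over knockout livers) and of 12 B cell markers (3.75, with 3.37 to 3.75 and 3.62 to 4.19). The same liver was the highest control for 30 T cell receptor signalling genes (4.56, with 4.09 to 4.56 and 4.20 to 4.40). That held too for 19 T cell identity markers (4.72, with 4.46 to 4.72 and 4.45 to 4.69). It held for the interleukin 2 and 15, dendritic and co-receptor ligand lists as well. It did not hold for the NKT, NK, cytotoxic or hepatocyte lists. The part of any of these cell types in the Trac values was not tested.

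The constant regions of the receptor beta chain, chosen after their values were seen, did not pass. Trbc1 had a difference of 0.46 ± 0.20 (SE; adjusted p = 0.18) and Trbc2 of -0.23 ± 0.16 (adjusted p = 0.45). These are near-identical copies, so their separate values are uncertain. Variable and joining segments of the T cell receptor genes, which are short and closely related, gave 4 lower and 0 higher of 96 rows, with a median difference of -0.026. The share called lower was 4.17%, beside 4.05% of all rows. Of the 96 segments, 78 had a mean under the median of all rows, where 2.01% of rows passed in either direction. The called segments Trgv3, Trbj2-1 and Trav13-2 lay above that median, where 12.6% passed, and Trbv17 lay under it. Leaving out 1 liver gave 2 to 7 lower, with 7 without control replicate 1, and 0 to 1 higher, and the calls of Trav13-2 and Trbv17 were lost without any 1 of 13 and of 15 livers. Unadjusted, 18 of the 96 had a p under 0.05. The gamma variable segment Trgv3 fell by 0.40 ± 0.09 (adjusted p = 0.013) and the beta joining segment Trbj2-1 by 0.46 ± 0.11 (adjusted p = 0.018), and each was under its run's control mean in 10 of 10 knockout livers. The values of single segments are uncertain where their probes match several relatives.

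**Figure D2:**
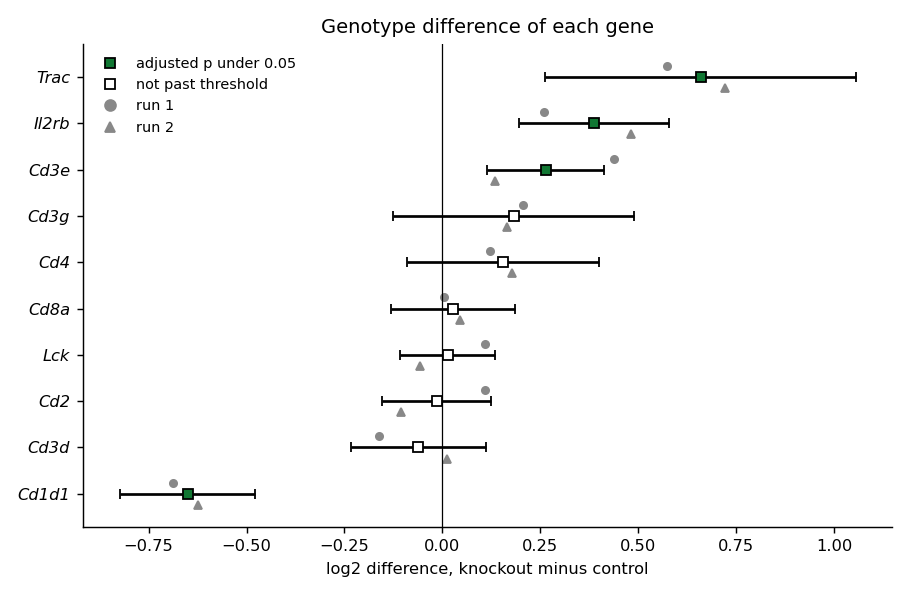
Log2 difference between knockout and control livers (x axis) for each of the 10 genes (y axis); squares with bars are the fit over 21 livers with its 95% confidence interval, filled where the adjusted p was under 0.05, and grey circles and triangles are runs 1 and 2 alone. Cd1d1 lies at -0.65 and Trac at 0.66, and the intervals of 6 genes include 0.

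The co-receptors showed no difference past the threshold. Cd4 ran from 3.35 to 4.18 in controls (median 3.69) and from 3.49 to 4.57 in knockout livers (median 3.91). The groups overlapped, and 1 knockout liver, replicate 7, lay above all controls. Its difference was 0.15 ± 0.12 (log2, SE; 95% confidence interval -0.09 to 0.40; adjusted p = 0.49). Cd8a ran from 2.86 to 3.22 in controls (median 3.07) and from 2.69 to 3.35 in knockout livers (median 3.11), a range that enclosed the controls. Its difference was 0.03 ± 0.08 (95% confidence interval -0.13 to 0.18; adjusted p = 0.89). Whether the co-receptors changed unequally was tested on the value of Cd4 minus Cd8a in each liver. Its mean was 0.69 ± 0.30 (SD, n = 11) for control and 0.81 ± 0.44 (SD, n = 10) for knockout livers, a run-adjusted difference of 0.13 (two-sided permutation test within runs, p = 0.49, adjusted p = 0.49 over 2 such tests). The same test on Cd1d1 minus the mean of the 3 CD3 genes gave -0.78 (permutation p = 1e-05, the smallest that 100000 resamples can give, adjusted p = 2e-05). Most of that value is the difference of Cd1d1 itself (-0.65), whose groups did not overlap. The members were chosen with earlier results known, so this p adds little to the result for Cd1d1.

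Lck, the kinase of the co-receptors, ran from 3.31 to 3.68 in controls (median 3.51) and from 3.22 to 3.72 in knockout livers (median 3.45). Its difference was 0.01 ± 0.06 (log2, SE; 95% confidence interval -0.11 to 0.14; adjusted p = 0.93). Cd2, the adhesion receptor of T and NK cells, ran from 3.15 to 3.51 in controls (median 3.42) and from 3.05 to 3.59 in knockout livers (median 3.41). Its difference was -0.02 ± 0.07 (95% confidence interval -0.15 to 0.12; adjusted p = 0.93). For both genes the groups overlapped almost wholly, and the runs differed in sign (0.11 in run 1 for each; -0.06 for Lck and -0.11 for Cd2 in run 2).

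Il2rb, the beta chain shared by the receptors of interleukin 2 and interleukin 15, on which NK and NKT cells depend, was the other member that rose. It ran from 3.39 to 3.86 in controls (median 3.56) and from 3.52 to 4.54 in knockout livers (median 3.95). The highest control, replicate 11, lay among the knockout livers, 6 of 10 of which exceeded it, and knockout replicate 1 lay among the controls. Il2rb rose by 0.39 ± 0.09 (log2, SE; 95% confidence interval 0.20 to 0.58; adjusted p = 0.015). Run 1 livers gave 0.26 ± 0.12 and run 2 livers 0.48 ± 0.12. The call held without any 1 liver (adjusted p up to 0.031). Of 14 other genes of this pathway, 2 rose (14.3%) and none fell, against 7.33% of all rows and 12.6% of the brighter rows in either direction. The median difference was 0.038. Il2rg, the common gamma chain, rose by 1.08 ± 0.26 (adjusted p = 0.015) and the kinase gene Jak3, which binds it, by 0.51 ± 0.15 (adjusted p = 0.045), which was lost on removal of any 1 of 16 livers (all but control replicates 3 and 11 and knockout replicates 2, 5 and 9; adjusted p up to 0.088). Il2ra, the alpha chain of the interleukin 2 receptor, differed by -0.01 ± 0.09 (adjusted p = 0.96) and the ligand gene Il15 by 0.21 ± 0.11 (adjusted p = 0.26).

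All T cell members gave low signals, close to or under the array median. Their means over the 21 livers lay between 3.06 and 3.93, beside a median of 3.75 over each array. Cd3g, Cd3e, Cd4 and Il2rb lay just above the median of all row means, and 5 members lay under it. Signal over background was not measured here. No member's difference changed between runs by the interaction test in limma (0 of 10, with 0.0315% of all rows past it), and 1, Cd3e, had an unadjusted p under 0.05 (p = 0.035). The labelled tissue was checked by hepatocyte markers. Of 10 measured, 9 had means between 11.3 and 13.8, and Ass1, a urea cycle enzyme gene, had a mean of 4.51. None of the 10 passed (4 had an unadjusted p under 0.05), the lowest p being that of Cyp2e1, a cytochrome P450 of the centrilobular zone (-0.31 ± 0.10, SE; adjusted p = 0.051). Clec4g fell by 0.92 ± 0.23 (SE; adjusted p = 0.018). Gata4 differed by -0.19 ± 0.10 (adjusted p = 0.26), and the position of its probes relative to the deleted part is not stated in the labels.

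Of 30 measured signalling genes of the T cell receptor, 2 rose (6.67%, against 7.33% of all rows in either direction) and none fell. Unadjusted, 7 had a p under 0.05, and the median difference was 0.037. Leaving out 1 liver gave 1 to 5 higher, with 5 without control replicate 3, and run 2 alone gave 4. Vav1, an exchange factor of blood cells, rose by 0.82 ± 0.17 (SE; adjusted p = 0.0064). Cd27, a co-stimulatory receptor, rose by 0.24 ± 0.07 (adjusted p = 0.045), which was lost on removal of any 1 of 16 livers (all but control replicate 1 and knockout replicates 1, 2, 5 and 8; adjusted p up to 0.091). Cd247, the zeta chain of the receptor complex, differed by 0.03 ± 0.07 (adjusted p = 0.87), the adaptor gene Lat by -0.01 ± 0.12 (adjusted p = 0.98) and the kinase gene Zap70 by -0.19 ± 0.08 (adjusted p = 0.18). Ptprc, the CD45 gene of all leukocytes, differed by 0.97 ± 0.33 (adjusted p = 0.080). Without control replicate 3, which held its highest value (8.34), the difference was 1.24 and passed (adjusted p = 7.44e-04).

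Of 19 measured markers of T cell identity and subsets, 1 rose and 1 fell (10.5%, against 7.33% of all rows in either direction). The median difference was -0.012. Satb1, a chromatin organiser of T cells, rose by 0.34 ± 0.08 (SE; adjusted p = 0.012). Tox, a regulator of T cell development and exhaustion, had a difference of -0.54 ± 0.16 (adjusted p = 0.037), made up of -1.01 for run 1 and -0.20 for run 2; the call was lost without any 1 of 11 livers (control replicates 2, 4, 5, 6, 7 and 8, knockout replicates 3, 4, 7, 8 and 10; adjusted p up to 0.076) and without the run term (adjusted p = 0.064). Cd8b1, the partner chain of Cd8a, differed by 0.05 ± 0.08 (adjusted p = 0.78), Thy1 by -0.07 ± 0.09 (adjusted p = 0.69) and Foxp3, which marks regulatory T cells, by 0.02 ± 0.07 (adjusted p = 0.92).

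**Figure D3:**
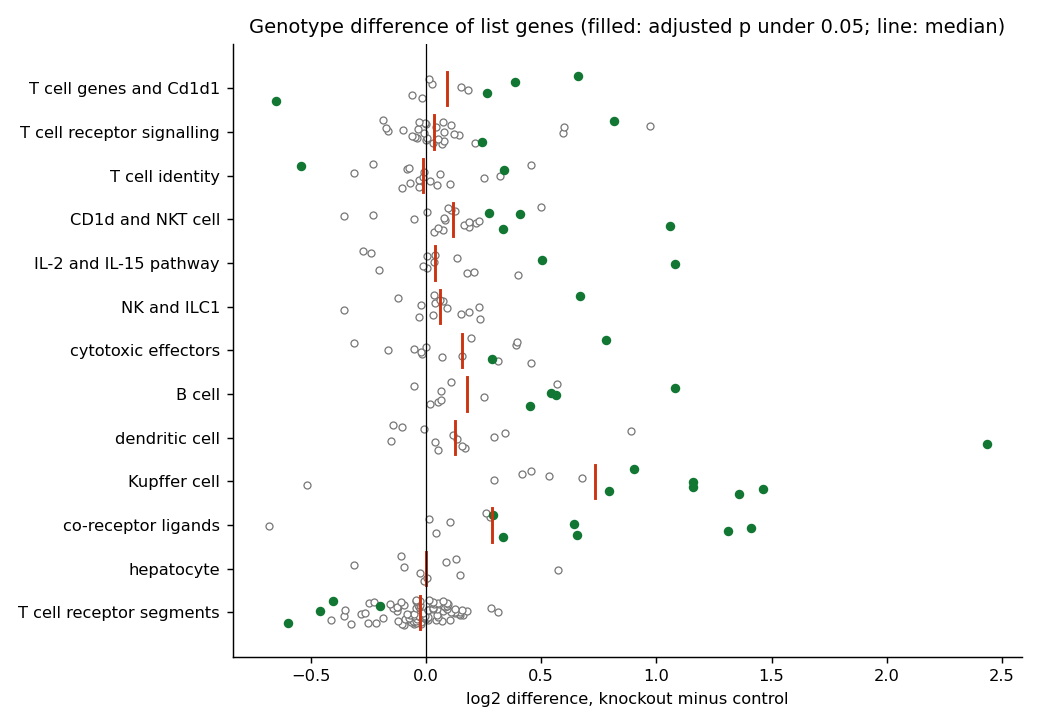
Log2 difference between knockout and control livers (x axis) for every measured gene of each list (y axis), with filled points at an adjusted p under 0.05 and a red line at the list's median. The Kupffer cell list has the median farthest from 0 (0.736), and the medians of the T cell signalling and identity lists lie at 0.037 and -0.012.

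NK cells and cytotoxic lymphocytes also carry Il2rb. Of 15 NK and type 1 innate lymphoid markers, 1 rose (6.67%, against 7.33% of all rows in either direction), Tyrobp, an adaptor that myeloid cells also use (0.67 ± 0.17, SE; adjusted p = 0.024), and the median was 0.061. Ncr1, the NKp46 receptor gene of NK cells, differed by 0.06 ± 0.07 (adjusted p = 0.69). Of 15 cytotoxic effectors, 2 rose (13.3%) and none fell, with a median of 0.157. That share stands against 7.33% of all rows and 12.6% of the brighter rows in either direction, and 8 of the 15 had a mean under the median of all rows. Srgn, a granule proteoglycan of many leukocytes, rose by 0.78 ± 0.19 (adjusted p = 0.017). Ctsw, a cathepsin of cytotoxic cells, rose by 0.29 ± 0.09 (adjusted p = 0.045), which was lost on removal of any 1 of 16 livers (all but control replicates 1, 5 and 11 and knockout replicates 1 and 4; adjusted p up to 0.085) and with array weights (adjusted p = 0.056). The perforin gene Prf1 differed by -0.31 ± 0.10 (adjusted p = 0.070).

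Some markers of other cell types also differed between the groups. In the Kupffer cell list 6 of 12 genes rose (50%) and 0 fell, with a median of 0.736. In either direction 7.33% of all rows and 12.6% of the brighter rows passed, and all genes of this list were among the brighter. The complement genes C1qb, C1qa and C1qc rose by 1.46 ± 0.24, 0.79 ± 0.16 and 1.16 ± 0.24 (SE). Adgre1, Cd5l and Vsig4 were the other called genes. Clec4f, the lectin that defines these cells, differed by 0.30 ± 0.22 (adjusted p = 0.46). Timd4, Marco, Csf1r, Folr2 and Cd163 did not pass either, and Cd163 alone had a negative difference (-0.52, adjusted p = 0.34). Of 12 B cell markers, 4 rose (33.3%, beside the same 7.33%) and none fell, with a median of 0.180. On this list the B cell receptor subunits Cd79a and Cd79b rose by 0.57 ± 0.14 and 0.54 ± 0.15. The Cd79b call was lost without any 1 of 6 livers (control replicates 4, 8, 9 and 10, knockout replicates 4 and 9; adjusted p up to 0.067). Fcer2a on that list rose by 1.08 ± 0.08 and Cd209a, the only called gene of 14 dendritic cell markers, by 2.43 ± 0.27; these are the nearest and the second measured gene from Clec4g, the locus whose sequence drives the Cre. The mean log2 signal of the dendritic list ran from 3.51 to 3.87 in controls and from 3.73 to 4.20 in knockout livers. That mean includes Cd209a, and the mean of the 12 B cell markers given with Trac includes Fcer2a. The median difference of the 14 genes was 0.125, and the share called was 7.14%, beside 7.33% of all rows. Il2rb, Trac and Cd3e were higher in the knockout group, as the called genes of these lists were. No relation of Il2rb, Trac and Cd3e to the lists was computed liver by liver. The part of other cell types in their rise was not tested.

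Several partners of the co-receptors and of CD2 were higher in knockout livers. Of 12 genes that encode or control the partners of CD2, CD4 and CD8, 6 rose and none fell. That is 50%, against 7.33% of all rows and 12.6% of the brighter rows in either direction. The median was 0.285. The class II genes H2-Ab1 and H2-Aa, which CD4 binds, rose by 1.41 ± 0.26 (SE; adjusted p = 0.0035) and 1.31 ± 0.27 (adjusted p = 0.0061). Cd48, the ligand of CD2 in mice, rose by 0.66 ± 0.12 (adjusted p = 0.0039), with 10 of 10 knockout livers above the control mean of their run. The groups overlapped, as the highest control (4.16) lay above every knockout liver (up to 3.92). The next highest control (3.38) lay below all 10. The class I heavy chain H2-K1, a partner of CD8, differed by 0.11 ± 0.10 (adjusted p = 0.57).

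The members were also compared across livers after centring each gene on the mean of its genotype and run. Of 45 pairs, 2 passed after adjustment over all pairs. Cd3e and Trac had r = 0.71 and rho = 0.76 (n = 21; permutation within genotype and run, p = 3.5e-04 and 4.9e-04; adjusted p = 0.016 and 0.022), with r = 0.81 in run 1 and 0.66 in run 2. Without the 2 livers farthest from the median of Cd3e, r was 0.64. Cd3g and Trac had r = 0.62 and rho = 0.71 (n = 21; permutation p = 0.0016 and 0.0019; adjusted p = 0.036 and 0.042), with 0.91 in run 1, 0.45 in run 2 and 0.66 without the 2 livers farthest from the median of Cd3g. By r, some other genes, picked as the highest of all rows, lay closer to Trac than these members did. Among them were Clic1 (r = 0.88, rho = 0.72), Ms4a6d (r = 0.86, rho = 0.74) and Fcer1g (r = 0.84, rho = 0.77). By rho, Clic1 and Ms4a6d lay below Cd3e (0.76). Without the 2 livers farthest from the median of Trac, r was 0.69 for Clic1, 0.68 for Ms4a6d and 0.67 for Fcer1g. Ms4a6d and Fcer1g are known from myeloid cells, and the part of such cells in these relations was not tested. Cd3d did not join them, with r = 0.23 to Trac, and its closest relation was a negative one to Cd2 (r = -0.71, rho = -0.57, permutation p = 0.0042 and 0.022, adjusted p = 0.063 and 0.27, -0.52 without the 2 livers farthest from the median of Cd3d). Of the 9 pairs with Cd1d1, the largest r in size was -0.30, with Cd3e (rho = -0.31, permutation p = 0.23 and 0.22, adjusted p = 0.73 and 0.72). It was -0.06 in run 1, -0.61 in run 2 and -0.51 without the 2 livers farthest from the median of Cd3e.

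**Figure D4:**
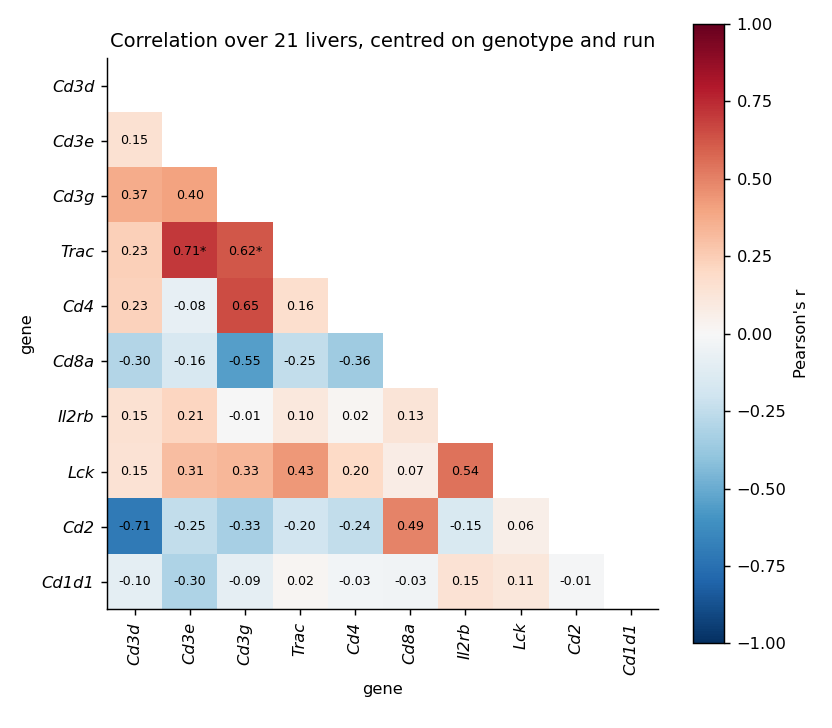
Pearson's r (colour and printed value) for the 45 pairs of the 10 genes over 21 livers, each gene centred on the mean of its genotype and run; an asterisk marks an adjusted permutation p under 0.05. The 2 marked pairs join Trac to Cd3e (0.71) and Cd3g (0.62), and the row of Cd1d1 holds no r beyond 0.30 in size.

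The genes whose centred values were most like those of Cd1d1 over the 21 livers, members left out, were Slc25a46, a mitochondrial outer membrane protein (r = 0.86, rho = 0.86), Dmgdh, a mitochondrial dehydrogenase of choline breakdown (r = 0.82, rho = 0.80), Ttll2 (r = 0.78, rho = 0.82), Dcaf6 (r = 0.77, rho = 0.71) and Fra10ac1 (r = 0.77, rho = 0.77). These are the 5 highest of all rows, picked for their r, so no p is given. Of them Dmgdh fell by 0.46 (adjusted p = 4.87e-04), Dcaf6 by 0.29 (adjusted p = 0.034) and Fra10ac1 by 0.39 (adjusted p = 0.013), while Slc25a46 and Ttll2 did not pass. For the mean of the 3 standardised CD3 genes, the most alike were Jpt1 (r = 0.88, rho = 0.84), AU020206 (r = 0.82, rho = 0.82), Rcan3 (r = 0.81, rho = 0.72), the actin crosslinker gene Actn1 (r = 0.81, rho = 0.74) and the prostaglandin receptor gene Ptger4 (r = 0.81, rho = 0.74). Jpt1 rose by 0.54 (adjusted p = 0.0095) and Actn1 by 0.34 (adjusted p = 0.046), and the other 3 did not pass.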

How the data were processed

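The authors deposited log2 values made with RMA, per the submitters' processing notes, which corrects background, normalises arrays by quantiles and summarises probes per gene; its version, the array type and the build are not given in the sources used here. Scanner files were not used here, so signal over background is unknown. Of 25428 rows, 24705 have a symbol in the platform annotation and 564 were named by Entrez number in RefSeq; both sources gave the same symbol for all 24673 rows they share. Genotype was fitted with lmFit and eBayes of limma 3.58.1 (R 4.3.3), with run as a term and no filter, over 21 livers, with Benjamini-Hochberg adjustment over all rows. Differences are knockout minus control with the SE of the fit. Each sample is labelled a biological replicate and was taken as 1 mouse. Of 175 genes on 11 further lists, 171 were measured. The members and lists were chosen with earlier results of these data known. Named are all members, up to 3 called genes per list with the lowest adjusted p (else the 1 with the lowest p), 2 segments and 5 most alike genes; other genes were chosen after their values were seen. The replicate numbers of the labels did not pair the livers. Tested on simulated data, the fit recovered 81% of genes moved by 0.5 and 98% of those moved by 1 (log2), with 11 false calls among 25428 rows. Permutation tests used Python 3.11.15 with 100000 resamples, and figures matplotlib 3.10.9.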

Additional observations from a re-analysis of the deposited data

Results flagged for a closer look

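In the 10 knockout livers, 4 genes had 1 liver far from the rest by Dixon's ratio at its 95% critical value, of 35 genes looked at; chance alone gives about 1 in 20. Cd3e was 3.49 in knockout replicate 5, with 3.90 as the nearest other value. Cd3g was 5.03 in knockout replicate 7, where the next value was 4.31. Srgn was 9.91 and Cd79b 5.37 in knockout replicate 6, with 9.08 and 4.56 as the next values.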

How the results depend on the processing

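In run 1 alone (9 livers) 0 members passed by limma, 0 higher and 0 lower, against 4, 3 and 1 with all livers, and 1 list gene against 29; 2 rows of the array passed as higher and 1 as lower there. Leaving out 1 liver gave 2 to 4 members called, 1 to 3 of them higher, and 22 to 36 list genes; without control replicate 4, knockout replicate 3 or knockout replicate 4 the count of members was 2. Centring on run alone gave 5 correlated pairs in place of 2. Of members that did not pass, Cd3d turned to 0.013 and Lck to -0.057 in run 2 alone, and Cd2 to 0.11 in run 1 alone and 0.0068 with array weights. Leaving out 1 liver took Cd8a from -0.0033 to 0.069, Lck from -0.0079 to 0.038 and Cd2 from -0.044 to 0.015. The replicate numbers were not taken as pairs: 2 of 10 pairs correlated above 0.1 (-0.05 to 0.17), and 1 liver was closest to its own number. With the replicate block 3 members passed (Trac was lost, adjusted p = 0.10), 22 list genes, and 642 rows higher and 602 lower against 834 and 1030; Cd4 minus Cd8a was 0.14 and Cd1d1 minus the CD3 mean -0.76. Leaving out rows under the median removed 5 members, among them Trac, and kept 3 called. A second quantile normalisation and median centring each left 4 members called. The T cell members lie near the array median, and signal over background was not measured here.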

Other observations

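H2-D1, a class I heavy chain gene that CD8 can bind and that was chosen after its values were seen, had a log2 signal of 4.25 in knockout replicate 1, while the remaining 9 knockout livers ran from 9.99 to 11.5 and controls from 9.64 to 11.7. The genes most like Trac over the 21 livers after centring on genotype and run, a comparison chosen after its values were seen, were Clic1 (r = 0.88, rho = 0.72), Ms4a6d (r = 0.86, rho = 0.74), Themis2 (r = 0.85, rho = 0.70), Fcer1g (r = 0.84, rho = 0.77) and Iqgap1 (r = 0.84, rho = 0.78). Ms4a6d and Fcer1g are known from myeloid cells. Without the 2 livers farthest from the median of Trac these r values ran from 0.59 to 0.69.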
